A study of Rattus norvegicus with 4 samples.

Results

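The genes described here are the aminoacyl-tRNA synthetases of the cytosol and the genes that cells use to respond to a shortage of amino acids. They were chosen by name: a gene spot belonged to the set when the RefSeq transcript it was designed on, with the version dropped, maps to 1 of 31 rat gene symbols. All 31 genes were on the arrays, out of 16419 named genes measured on all of them, with 37 probes and 99 spots per array. On the synthetase side there are 21 genes, of which 19 encode synthetases and 2, Aimp1 and Aimp2, encode scaffold proteins that hold synthetases together. The other 10 belong to the stress pathway run by the transcription factor ATF4. The rule itself uses names and no expression values, but the genes were chosen with earlier results of these data known.

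The samples were 4 cultures of NR8383, an alveolar macrophage line that was started from the lung lavage of a healthy rat and used after 20 passages. The line grew partly attached (50%) and partly floating (50%) in DMEM with 15% heat-inactivated fetal bovine serum, 2 mM L-glutamine, antibiotics and an antifungal agent. All 4 cultures were kept for 48 h in 25 cm2 flasks and given NRCWE006, which is a multi-walled carbon nanotube, for 4 h at 1 cm2 of particle surface per cm2. They form 1 group of 4 biological replicates, and cultures without nanotubes were not analysed here. The values therefore describe exposed cells and give no effect of the exposure. Each culture was measured on 1 single-colour array of a shared slide, so culture and array cannot be told apart.

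A probe counted as called on an array if the scanner software marked over 50% of its usable spots as well above background, and a gene was detected when 1 of its probes was called on all 4 arrays. Probes called numbered 5722, 4745, 4252 and 6476 on replicates 1 to 4, and no spot was saturated. Replicate 4 stood apart in quality: 656 of its spots were flagged as non-uniform against 9 to 34 on the others, and its negative control spots had a median signal of 4.61 against 2.98 to 3.36. Of 11 macrophage markers, Cd68, Fcgr1a, Lyz2 and Spi1 were detected, while Csf1r, Mrc1, Itgam, Cd14, Adgre1 and Msr1 were called on no array. Napsa was the 1 detected gene of 10 lung epithelial markers and Vwf that of 5 endothelial markers, and none of 5 fibroblast, 3 lymphocyte or 4 granulocyte and mast cell markers was detected. Of all named genes 11.9% were detected. The counts outside the macrophage list are near what that share gives in lists this short, so they say little about cell type. Replicate 4 alone called 4 further markers: Sftpb and Krt8 of lung epithelium, Cdh5 of endothelium and Marco of macrophages. That array also had the most called probes, and the share of all named genes called on it alone was not computed. The count is therefore not a result about the cells of that culture. The part of these 4 markers in the values of replicate 4 below was not tested. In bulk RNA of this kind, fewer cells of a type and less RNA per cell cannot be told apart.

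Aminoacyl-tRNA synthetases join each amino acid to its transfer RNA, the step that sets the meaning of the genetic code, and fall into a pair of structural classes with unrelated catalytic folds. Several of them sit together in the multisynthetase complex, built on the scaffold proteins Aimp1, Aimp2 and Eef1e1, and others work alone or as small oligomers. When an amino acid runs short, uncharged transfer RNA activates the kinase Gcn2 (Eif2ak4), which phosphorylates the initiation factor eIF2. General translation then slows while the messenger RNA of Atf4 is translated more, and the ATF4 protein turns on genes for amino acid synthesis, amino acid uptake and tRNA charging, together with the stress factors Ddit3, Atf3 and Trib3. Other kinases of eIF2 feed the same pathway during stress of the endoplasmic reticulum, shortage of haem, mitochondrial stress or viral infection. Since much of this control acts on translation and phosphorylation, messenger RNA levels show only part of it.

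ATF4 pairs with C/EBP proteins on a composite element that is written TGATGNAA in its general form, and it links the synthetases to the stress genes on the DNA side. Promoter windows of 300 bases, from 250 before to 50 after the annotated gene start, came from RefSeq on assembly GRCr8 for 28 of the 31 genes. Gars1, Rars1 and Atf3 were not searched. On either strand the general form was found in the windows of 7 of 19 synthetase-side genes (36.8%) and 2 of 9 stress genes (22.2%), against 1332 of 33469 windows of all genes (3.98%). The stricter form TGATGCAA, which is contained in the general form and was chosen after the matches had been seen, was found in 7 of 19 (36.8%) and 1 of 9 (11.1%), against 266 windows of all genes (0.795%). Related lists shared the general form, with 3 of 10 windows of amino acid transporters (30%), 5 of 20 of further ATF4 pathway genes (25%) and 2 of 14 of genes of the eIF2 cycle (14.3%). None of 18 windows of mitochondrial synthetase genes and none of 9 of genes of amino acid sensing by mTORC1 held either form. A match is a match of letters and was not tested for binding.

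The whole windows of Aars1 and Trib3 are shown because Aars1 is the 1 synthetase with a pair of matches and Trib3 the 1 detected stress gene with a match. Sequences run 5′ to 3′ on the strand of the gene, capitals mark the match, and position 0 is the first base of the gene. The Aars1 window lies at chr19:55908232-55908531 (plus strand) with matches that begin at positions -112 and 9, and the Trib3 window at chr3:161275484-161275783 (minus strand) with a match at -21. All 3 are read on the opposite strand to the gene, so the capitals show the reverse complement of the element.
Aars1: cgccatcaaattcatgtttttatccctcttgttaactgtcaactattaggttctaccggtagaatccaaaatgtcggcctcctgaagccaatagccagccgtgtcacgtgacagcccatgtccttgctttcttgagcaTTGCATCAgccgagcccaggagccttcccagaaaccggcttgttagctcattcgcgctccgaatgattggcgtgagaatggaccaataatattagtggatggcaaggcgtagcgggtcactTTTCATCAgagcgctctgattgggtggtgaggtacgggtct
Trib3: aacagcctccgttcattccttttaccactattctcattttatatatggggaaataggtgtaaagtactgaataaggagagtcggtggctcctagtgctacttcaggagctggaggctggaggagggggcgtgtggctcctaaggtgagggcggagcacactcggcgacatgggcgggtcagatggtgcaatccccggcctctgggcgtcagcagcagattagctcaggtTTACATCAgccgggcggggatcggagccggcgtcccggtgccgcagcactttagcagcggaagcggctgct

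For the other 7 genes with a match, the element is shown with 16 bases on either side, or up to the end of the window for Yars1, so that the shared core and the different surroundings can be compared.
Cars1: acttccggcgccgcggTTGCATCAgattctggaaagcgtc
Iars1: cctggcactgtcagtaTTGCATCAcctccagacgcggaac
Mars1: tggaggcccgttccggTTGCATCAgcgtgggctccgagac
Nars1: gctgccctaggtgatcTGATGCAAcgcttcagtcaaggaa
Tars1: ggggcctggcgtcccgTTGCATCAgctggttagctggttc
Yars1: gagctacgagctcagcTGATGCAAcctg
Chac1: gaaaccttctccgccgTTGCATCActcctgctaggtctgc
These stretches lie at chr1:208225329-208225368 (minus strand) for Cars1, chr17:15193653-15193692 (minus) for Iars1, chr7:65023747-65023786 (minus) for Mars1 and chr18:60275773-60275812 (minus) for Nars1. The remaining ones lie at chr2:62114806-62114845 (minus) for Tars1, chr5:146820185-146820212 (plus) for Yars1 and chr3:126795948-126795987 (plus) for Chac1. In Nars1 and Yars1 the element is read on the strand of the gene, and in the other 5 on the opposite strand. The match begins at positions 17 in Cars1, -24 in Iars1, -17 in Mars1, -14 in Nars1, -27 in Tars1, 38 in Yars1 and -167 in Chac1. On the arrays, 4 of the 9 genes with a match were well above background throughout (Aars1, Tars1, Yars1 and Trib3), and 12 of the 19 genes without one. Over named genes with a window, the general form was found for 32 of 1647 detected genes (1.94%) and 410 of 11772 not detected (3.48%). Detection was thus the less frequent with a match there too, and no test was run on this split.

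**Figure D1:**
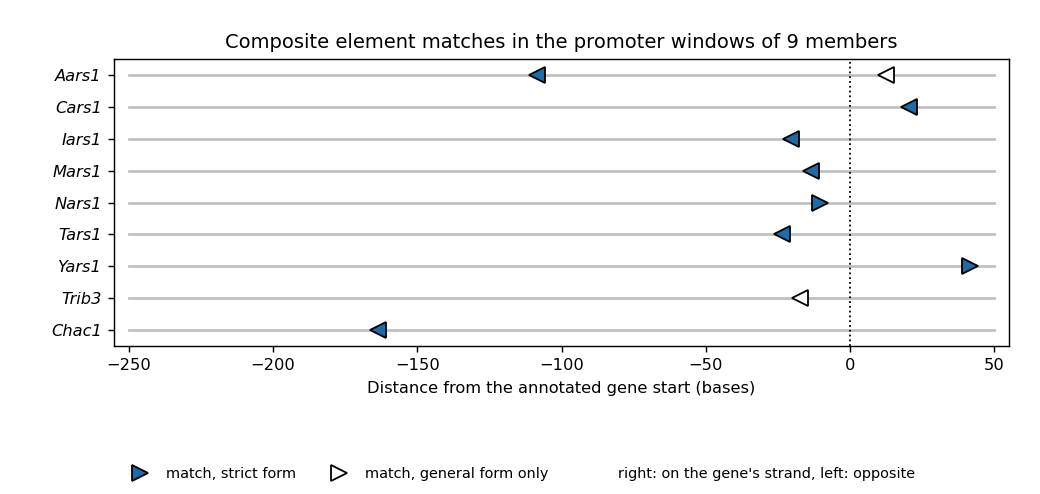
Position of each match to the composite element in the promoter windows of the 9 genes that have one, in bases from the annotated gene start, with filled symbols for the strict form and open symbols for a match to the general form alone. Symbols pointing left are read on the strand opposite to the gene, and the matches outside Aars1 and Chac1 lie between positions -27 and 38.

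On the synthetase side, 10 of 21 genes were detected (47.6%), and of the stress genes 7 of 10 (70%), against 11.9% of all named genes. Together that is 17 of 31 genes (54.8%). On the synthetase side 5 genes were called on no array and in the stress set 2, against 70.9% of all named genes. The synthetase side had 16, 16, 14 and 10 genes called on replicates 1 to 4, where the share of all named genes called was 21.1%, 17.7%, 15.8% and 20.3%. Its lowest count was thus on replicate 4, the array with the largest number of called probes. The stress genes had 8, 8, 7 and 7. No test was run on these counts.

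Among the synthetases of class I, detection on all arrays was reached by 3 of 10: Qars1, Wars1 and Yars1, which charge glutamine, tryptophan and tyrosine transfer RNA. In class II it was reached by 5 of 9, Aars1, Farsa, Gars1, Sars1 and Tars1, for alanine, phenylalanine, glycine, serine and threonine. Eprs1, which carries glutamyl and prolyl activities of different classes in 1 protein, was counted in class I. Of all named genes 11.9% were detected. With a call on at least 3 arrays, classes I and II reached 6 of 10 and 6 of 9, against 15.5% of all named genes. With a rule on negative control spots, given below, they reached 7 of 10 and 6 of 9, against 21.5%. The order of the classes thus depended on the rule. Both scaffold genes, Aimp1 and Aimp2, were detected. Not called on any array were Cars1, Farsb, Hars1, Nars1 and Vars1, for cysteine, phenylalanine, histidine, asparagine and valine. Farsa and Farsb encode the subunits of the same phenylalanyl-tRNA synthetase, and they came out on opposite sides: Farsa had signals of 188 to 339, and Farsb of 4.63 to 12.6 that were not well above background. Signals of different probes are not comparable as levels.

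Another 6 synthetase genes were called on some arrays. Eprs1, Kars1, Lars1 and Mars1 were called on replicates 1 to 3, and Iars1 and Rars1 on replicates 1 and 2. All 6 were missed on replicate 4, and all 6 encode synthetases of the multisynthetase complex, a grouping that was noticed after the values had been seen. Qars1, Aimp1 and Aimp2 of the same complex were detected, and its scaffold gene Eef1e1, which is outside the set of 31, was called on some arrays. Among the 12 listed synthetase genes that work outside the complex, 7 were detected and the other 5 were called on no array. Of the 14 synthetase-side genes called on each of replicates 1 to 3, 4 were not called on replicate 4, and of the 7 such stress genes none was, against 19.5% of all named genes. The flagged spots and the higher negative control signals of replicate 4 move with these losses, and their part in them was not tested.

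The missed calls differed in signal. Mars1 had signals of 87.6, 51.2, 43.7 and 16.9 on replicates 1 to 4, so that its value on replicate 4 lay clearly under the others. Iars1 had 37.8, 22.8, 16.3 and 5.57, and Rars1 28.9, 14.6, 14.8 and 6.97, both again lowest on replicate 4. Eprs1, by contrast, had 48.4, 23.9, 29.9 and 28, with a signal on replicate 4 between those of replicates 2 and 3. Like Mars1, it missed its call because 1 of its 2 spots was not well above background. Kars1 had 32.2, 19.5, 24.9 and 12.6 from a single spot. Lars1 is the best measured of the 6, with a probe printed 10 times and signals of 58.5, 32.1, 48.9 and 17.2. On replicate 4 its spots ran from 8.03 to 27.4 and 5 of 10 were well above background, just short of the limit, while every usable spot on the other arrays was called.

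The number of detected genes depends on how strict the call is. When a call on at least 3 arrays was enough, the synthetase side reached 14 of 21 and the stress genes stayed at 7 of 10, with 15.5% of all named genes. When a probe had instead to exceed the 95th percentile of the negative control spots by 10% on all 4 arrays, the counts were 15 of 21 and 8 of 10, with 21.5% of all named genes. The genes gained by that rule were Eprs1, Kars1, Lars1, Mars1, Rars1 and Atf3. Iars1 and the 7 genes called on no array were not gained by either rule.

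**Figure D2:**
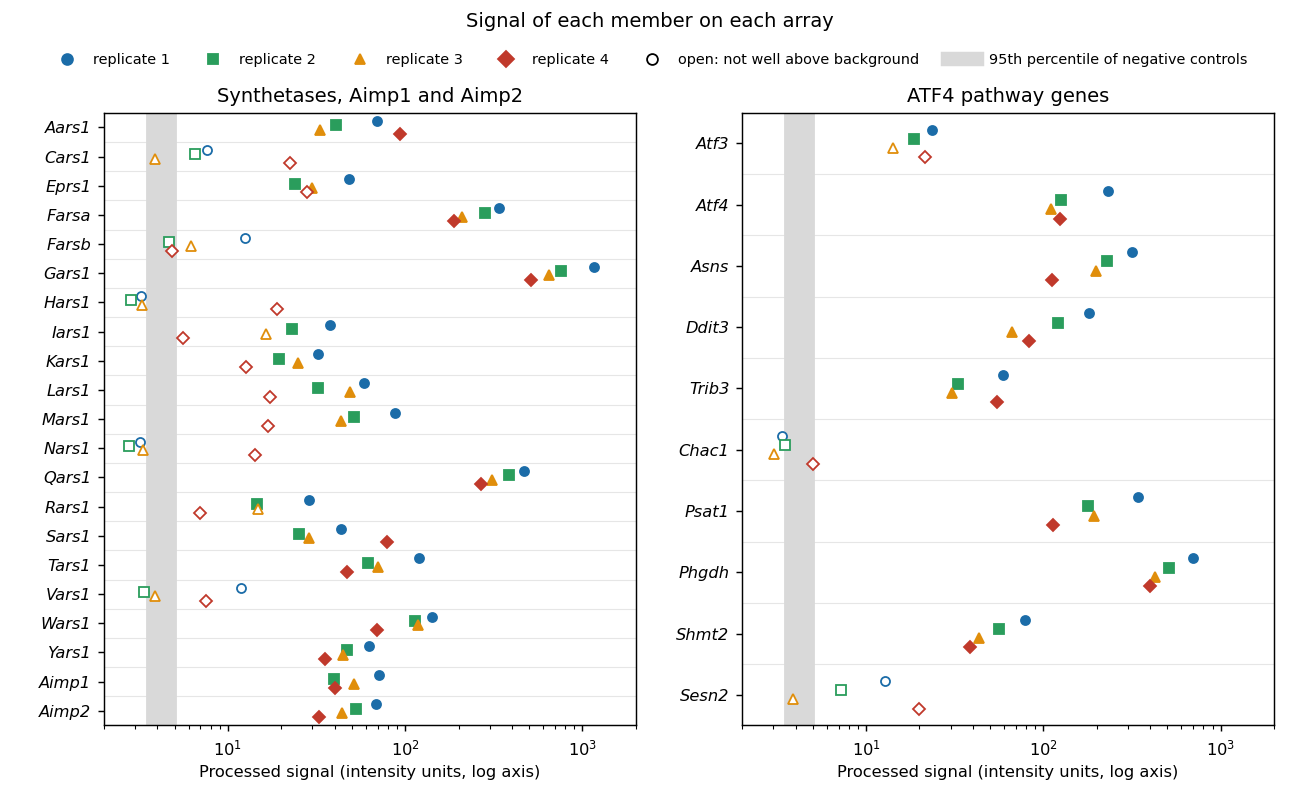
Processed signal of each gene on each of the 4 arrays, in intensity units on a log axis, with synthetases, Aimp1 and Aimp2 on the left and ATF4 pathway genes on the right. Open symbols are not well above background, the grey band spans the 95th percentiles of the negative control spots (3.48 to 5.10), and the open symbols of Eprs1, Kars1, Lars1 and Mars1 are on replicate 4 alone.

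Levels were compared between arrays as the log2 signal minus the log2 of the 75th percentile of signals over detected probes of the same array, which was 384, 281, 236 and 223 on replicates 1 to 4. A level of 0 thus equals that percentile. The brightest synthetase probe was that of Gars1, the glycyl-tRNA synthetase, with signals of 1167, 755, 649 and 510 and levels of 1.60, 1.43, 1.46 and 1.19 (mean 1.42 ± 0.17, SD, n = 4). Its replicate 4 was the lowest on both scales, and its fold between highest and lowest array was 1.33. A further Gars1 probe was called on replicate 1 alone.

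With this scaling Qars1, Farsa and Yars1 had the lowest SDs of the detected synthetase genes. With quantile normalization that of Yars1 was 0.63, above those of Sars1 (0.625) and Aars1 (0.57), and with the percentile over all gene probes Qars1, Farsa and Yars1 had SDs of 0.86, 0.87 and 0.85 and Sars1 and Aars1 the lowest ones. Qars1, which makes glutaminyl-tRNA within the complex, had signals of 469, 387, 308 and 268 and levels of 0.29, 0.46, 0.39 and 0.27 (mean 0.35 ± 0.091, SD, n = 4). Farsa had signals of 339, 281, 209 and 188 with a mean level of -0.15 ± 0.10 (SD, n = 4). Yars1 had signals of 62.8, 46.9, 44.8 and 35.2 and a mean level of -2.56 ± 0.12 (SD, n = 4). In all 3 genes the unscaled signal was highest on replicate 1 and lowest on replicate 4, an order they share with the scaling percentile itself. After scaling, the arrays lay within 1.15-fold for Qars1 and 1.18-fold for Farsa.

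Aimp2, the scaffold protein that binds Kars1 in the complex, had levels of -2.49, -2.42, -2.43 and -2.76 from signals of 68.3, 52.5, 43.8 and 32.9. Aimp1, which is also the precursor of a secreted cytokine-like peptide, had levels of -2.43, -2.82, -2.19 and -2.46 from signals of 71.3, 39.8, 51.7 and 40.4. The first was lowest on replicate 4 and the second on replicate 2, so the scaffold genes did not share an order. Their SDs were 0.16 and 0.26 (n = 4).

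Tars1 and Wars1 had middling spreads. Tars1, the threonyl-tRNA synthetase, had signals of 119, 61.7, 70.5 and 46.7 and a mean level of -1.97 ± 0.29 (SD, n = 4), with replicates 1 and 3 above replicates 2 and 4. Wars1, the tryptophanyl-tRNA synthetase, which interferon gamma induces in macrophages, had signals of 141, 113, 119 and 69.1 and a mean level of -1.36 ± 0.29 (SD, n = 4). It was highest on replicate 3 and lowest on replicate 4 after scaling, 1.62-fold apart. A further Wars1 probe was called on no array.

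Of the 10 detected synthetase-side genes, Aars1 and Sars1 were the 2 with their highest level on replicate 4. This held in 6 and 7 of 7 settings of the processing, respectively. With the percentile over all gene probes, Aars1 was highest on replicate 1. The mean over detected probes repeats the main values for both genes and is not a separate check. Aars1, the alanyl-tRNA synthetase, had signals of 69.2, 40.8, 32.9 and 94.0 and levels of -2.47, -2.78, -2.84 and -1.25, a 3.02-fold range. Sars1, the seryl-tRNA synthetase, had signals of 43.6, 25.3, 28.8 and 79.3 and levels of -3.14, -3.47, -3.03 and -1.49, a 3.94-fold range. For both genes the signal of replicate 4 lay above those of the other 3 arrays. Both probes were printed as 1 spot on each array, so there was no further spot of either probe to compare.

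In the stress set the transcription factor Atf4 itself was measured by a probe printed 10 times. Its signals were 231, 126, 111 and 125 and its levels -0.74, -1.15, -1.09 and -0.84 (mean -0.95 ± 0.20, SD, n = 4). Replicates 1 and 4 were the upper pair and replicates 2 and 3 the lower pair, within 1.33-fold. Ddit3, which encodes CHOP, the factor tied to cell death under lasting stress, had signals of 181, 120, 66.7 and 83.4 and levels of -1.08, -1.22, -1.82 and -1.42 (mean -1.39 ± 0.32, SD, n = 4). It was highest on replicate 1 and lowest on replicate 3. Trib3, a pseudokinase that ATF4 and CHOP induce and that feeds back on both, had signals of 59.3, 32.8, 30.5 and 54.6 and levels of -2.70, -3.10, -2.95 and -2.03. Its replicate 4 was the highest of the 4 levels, 2.10-fold above the lowest, while its unscaled signal was highest on replicate 1.

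Atf3, a stress-induced partner and antagonist of ATF4, was called on replicates 1 and 2 with signals of 23.6 and 18.7, and not on replicates 3 and 4, where they were 14.1 and 21.6. Chac1, an enzyme that degrades glutathione and one of the targets of this pathway, was called on no array, with signals of 3.01 to 5.01 that lay under the 95th percentile of the negative control spots of the same array. Sesn2, which restrains mTORC1 when leucine is low, was called on no array either, with signals of 12.8, 7.26, 3.85 and 19.8. The lowest signal marked as well above background was between 12.7 and 17.7 on an array, and the mark is set spot by spot, so some spots above that value lacked it.

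All 4 enzymes of serine, glycine and asparagine synthesis in the set were detected, while Psph, Pycr1, Cth and Cbs, enzymes of amino acid synthesis on another list, were called on no array. Asns, the asparagine synthetase, had signals of 314, 229, 197 and 112 and levels of -0.29, -0.29, -0.26 and -0.99. Replicates 1 to 3 were nearly equal and replicate 4 was low, which gave a mean of -0.46 ± 0.36 (SD, n = 4). Phgdh, the first enzyme of serine synthesis, had signals of 703, 512, 429 and 400 and levels of 0.87, 0.87, 0.86 and 0.84 (mean 0.86 ± 0.013, SD, n = 4). Its arrays lay within 1.02-fold, and 0.0514% of the 1946 detected genes had a lower SD. That rank holds with outlier spots left out: with all spots kept the SD of Phgdh was 0.036. Psat1, the next enzyme of that route, had signals of 341, 179, 194 and 113 and levels of -0.17, -0.65, -0.28 and -0.98 (mean -0.52 ± 0.37, SD, n = 4). Shmt2, which turns serine into glycine and a folate-bound carbon unit in mitochondria, had signals of 78.8, 55.9, 43.6 and 38.6 and a mean level of -2.40 ± 0.11 (SD, n = 4). The SDs of Phgdh, Psat1 and Shmt2 depended on the scaling: they were 0.019, 0.40 and 0.61 with quantile normalization, where Shmt2 lay above Psat1, and 0.81, 1.1 and 0.89 with the percentile over all gene probes. A second probe of Phgdh and of Psat1 was called on no array.

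Spots of the same probe give the spread within an array. The Gars1 spots ran from 459 to 585 on replicate 4, from 561 to 740 on replicate 3 and from 1046 to 1335 on replicate 1. The Phgdh spots ran from 658 to 752 on replicate 1 and from 369 to 447 on replicate 4. On this unscaled signal the spots of replicates 1 and 4 did not overlap for either gene. The scaling percentile was also higher on replicate 1 (384) than on replicate 4 (223). After scaling, the levels on replicates 1 and 4 were 0.87 and 0.84 for Phgdh and 1.60 and 1.19 for Gars1. The share of all probes without such overlap was not computed, so the gap is not a result about these genes. For Atf4 the spots of replicate 4 ran from 86.9 to 202 and those of replicate 3 from 88.5 to 151, so those arrays overlap over most of their range. Tars1 spots had an SD of 0.12 on the log2 scale on replicate 1 and of 0.42 on replicate 4. Spots of 1 array share its RNA and are not replicates of the cultures.

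**Figure D3:**
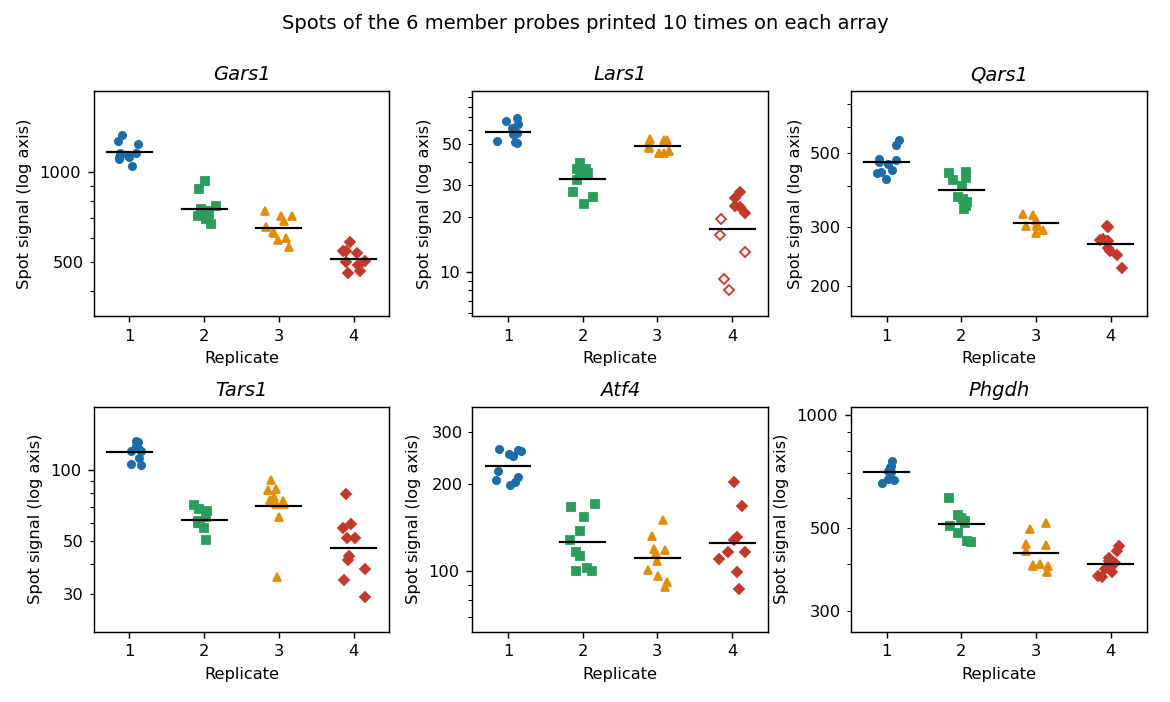
Signal of every usable spot of the 6 probes in the set that were printed 10 times per array, on log axes, with a bar at the mean of the log signals and open symbols for spots not well above background. The open symbols are the 5 Lars1 spots of replicate 4.

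Over the 10 detected synthetase-side genes the median SD of the level was 0.215 (range 0.091 to 0.881), and over the 7 detected stress genes it was 0.321 (range 0.013 to 0.473). Over all 1946 detected named genes it was 0.241 (range 0.0124 to 1.73). Aars1 and Sars1 were more than 2-fold apart between their highest and lowest array, as was Trib3. That is 2 of 10 synthetase-side genes and 1 of 7 stress genes, against 15.3% of all detected genes, so neither set is far from the background. The SDs of Sars1 and Aars1 exceeded those of 98.2% and 96.8% of detected genes, and that of Trib3 exceeded 87.1%. These ranks hold for this scaling: with the percentile over all gene probes the SDs of Sars1 and Aars1 were 0.105 and 0.24, the lowest of the detected synthetase-side genes. Without replicate 4 they were 0.23 and 0.23. No test between groups was possible.

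The number of spots per probe differed between these genes, and its part in the spread was not tested. The 8 detected genes of the set with a single spot had a median SD of 0.345 and included all 3 genes over 2-fold, and the 5 with 10 spots had a median of 0.170 and included none. Among all detected genes, 253 of 1394 with 1 spot (18.1%) and 22 of 353 with 10 spots (6.23%) were over 2-fold. Without replicate 4, no detected gene of the set was over 2-fold. Without replicate 2, Trib3 also lost its place above that limit.

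**Figure D4:**
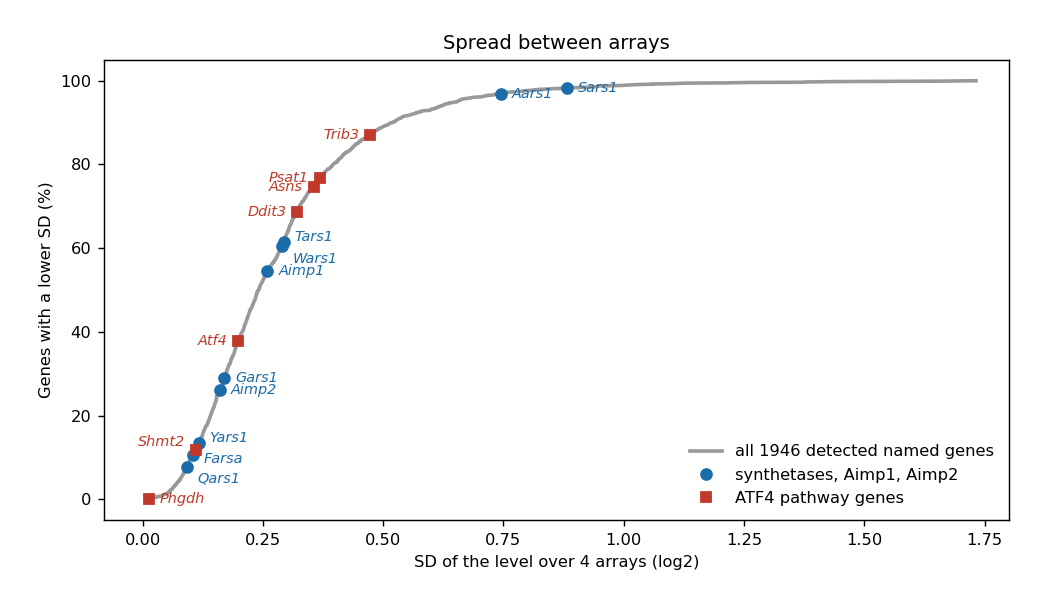
SD of the level over the 4 arrays for each detected gene of the set (log2, horizontal axis) against the percentage of the 1946 detected named genes that have a lower SD, which the grey curve gives for all of them. With each array scaled by its detected probes, Phgdh lies at the lower end with an SD of 0.013, and Sars1 (0.881) and Aars1 (0.745) near the upper end.

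Replicate 4 was the highest or the lowest array for most of the 17 detected genes, as it was for most of all 1946 detected genes. Replicate 1 was the highest array for 7 of the 17 detected genes, against 541 of all 1946 detected genes. Replicate 4 was the lowest array for 11 of the 17 detected genes, 7 on the synthetase side and 4 stress genes, against 770 of all 1946 detected genes. It was the highest for 3, Aars1, Sars1 and Trib3, against 585 of 1946. Over the 7 settings those 11 genes were lowest on replicate 4 in 5 to 7, while Sars1 was highest there in 7, Aars1 in 6 and Trib3 in 4. These settings are not separate checks. With the percentile over all gene probes, quantile normalization and no scaling, all detected genes shifted down on replicate 4, by median deviations of -1.23, -0.34 and -0.35. The mean over detected probes repeats the main values, since each gene of the set has a single detected probe. In median deviation from the mean over the 4 arrays, the 10 synthetase-side genes lay at -0.04, -0.01, 0.07 and -0.10 on replicates 1 to 4 and the 7 stress genes at 0.17, 0.01, -0.04 and -0.03. All detected genes lay at 0.04, 0.00, 0.00 and -0.05.

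The direction of replicate 4 was computed in 7 settings of scaling, background, outlier and probe choice. The measure was its level minus the mean of the other 3 arrays, relative to the same median difference over all detected genes. A factor shared by a whole array cancels in it. The main scaling, the percentile over all gene probes and no scaling therefore give the same value by construction and are not separate checks. With the mean over detected probes, only the median over all detected genes can differ, since each gene of the set has a single detected probe. Every change of sign came with quantile normalization or normexp. Sars1 lay above by 0.54 to 1.79, Aars1 by 0.41 to 1.57, Trib3 by 0.55 to 0.96 and Atf4 by 0.08 to 0.54. Asns lay between -0.65 and -0.33, Psat1 between -0.55 and -0.23, Wars1 between -0.42 and -0.17 and Tars1 between -0.72 and -0.13. Gars1, from -0.40 to 0.11, and the other genes apart from those 8 changed sign with the setting. The lower ends for Aars1, Sars1 and Trib3 came with normexp background correction, which adds an offset of 50 to the signals.

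**Figure D5:**
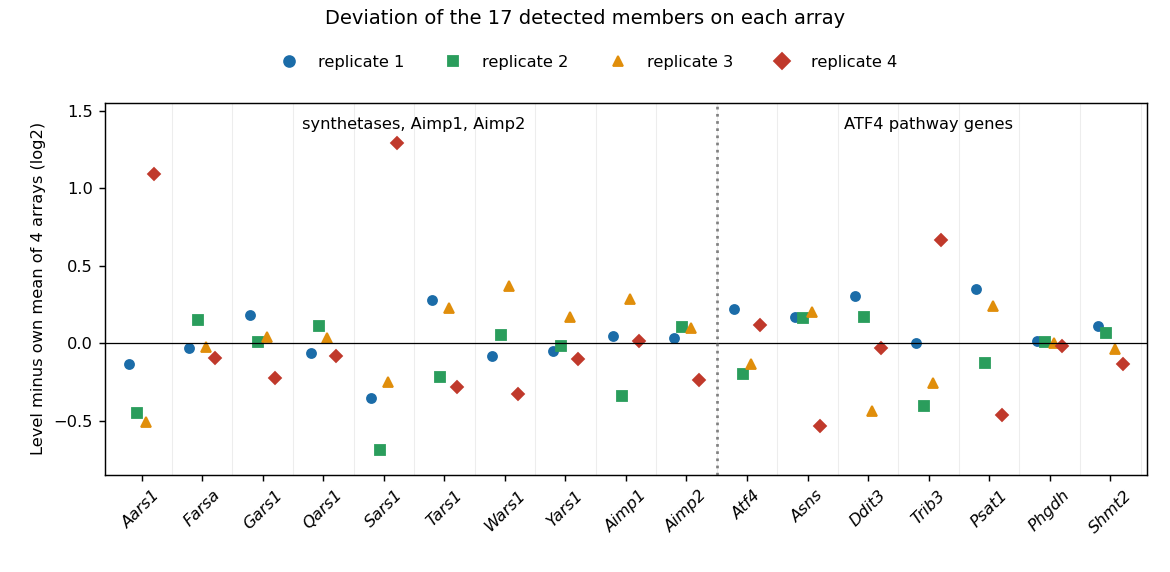
Level of each of the 17 detected genes on each array minus the mean over the 4 arrays of the same gene (log2). With each array scaled by its detected probes, replicate 4 is the highest array for Aars1, Sars1 and Trib3 and the lowest for 11 of the others, and the 4 symbols of Phgdh nearly coincide.

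Other genes of the same pathways were counted from lists in the same way. Of 14 genes for kinases and factors of the eIF2 cycle, 5 were detected (35.7%, against 11.9% of all named genes). These were Eif2ak1, the haem-regulated kinase; Eif2s1 and Eif2s2, subunits of eIF2; Eif2b2, a subunit of its exchange factor; and Ppp1r15a, the stress-induced phosphatase subunit that ends the response. The kinase Eif2ak4, which senses uncharged transfer RNA, was called on no array, nor were Eif2ak2 and Eif2ak3. Eif2s2 was highest on replicate 4, like Aars1 and Sars1, with signals of 46.6, 31.4, 33.7 and 59.6 and a 2.39-fold range, and its probe was printed 10 times. Eif2b2 was lowest on replicate 4, with signals of 311, 247, 219 and 114.

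Of 21 further ATF4 pathway genes measured, 6 were detected (28.6%, against 11.9% of all named genes). Cebpb, a partner of ATF4 on the composite element, had signals of 467, 273, 255 and 193. Eif4ebp1, a brake on cap-dependent translation, had 391, 312, 249 and 229, which gave an SD of 0.057. Mthfd2, the mitochondrial folate enzyme that follows Shmt2, had 378, 224, 202 and 183. In all 3 the unscaled signal was highest on replicate 1 and lowest on replicate 4. The remaining ones were Pck2, Gdf15 and Jdp2, with SDs of 0.23, 0.21 and 0.31. No gene of this list was over 2-fold between arrays. Psph, the last enzyme of serine synthesis, was among the genes called on no array, unlike Phgdh and Psat1.

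Of 10 amino acid transporters measured, 1 was detected (10%, close to the 11.9% of all named genes): Slc3a2, the heavy chain shared by several transporters, with signals of 182, 127, 120 and 111 and an SD of 0.078. Its light chains Slc7a5 and Slc7a11 were called on no array and on some arrays, respectively. Of 11 genes of amino acid sensing by mTORC1, 3 were detected (27.3%, against the same 11.9%): Rptor, Rragc and Lamtor2. Lamtor2, a subunit of the lysosomal Ragulator complex, was highest on replicate 4, with signals of 337, 256, 177 and 402. None of 13 measured synthetase genes of the mitochondria was detected, again against 11.9% of all named genes, and Ears2 and Sars2 were called on some arrays.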

How the data were processed

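Total RNA (100 ng, integrity number above 7.5) was labelled with Cy3, per the labels' protocols. The deposited files hold a linear intensity for every spot, per the file headers. Its background was subtracted by Agilent Feature Extraction, which the submitters' processing notes give as version 11.0.1.1, and arrays were not scaled to each other. Median signal and background intensity, as deposited, served the normexp alternative with an offset of 50.

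Control spots and spots flagged as outliers were left out, and each probe took the mean log2 signal over its spots. Where a gene had several detected probes, the brightest was used. RefSeq transcripts of assembly GRCr8 named 21109 of 45598 probes (46.3%). The file headers name an older build, so no coordinates came from the arrays. No test between groups was run, since there is 1 group, and Dixon's ratio was used to find arrays far from the others. Precision is limited by having 4 arrays. All 31 genes are named, with the detected genes of each further list. These genes and the lists were chosen with earlier results of these data known. The scripts were tested on simulated data and used Python version 3.11.15, pandas version 2.3.3, R version 4.3.3 and limma version 3.58.1. The alternatives were other detection rules, other scalings, normexp, all spots kept, the mean over probes, no filter on dim probes, and each replicate left out.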

Additional observations from a re-analysis of the deposited data

Results flagged for a closer look

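In 3 of 39 genes, 1 of the 4 arrays lay far from the others for the spread of the group, where chance alone is expected to give about 1 in 20. The count is not far from that rate. Asns had a level of -0.99 on replicate 4, below the -0.29 to -0.26 of the other arrays. Eprs1 had a level of -3.55 on replicate 2, below the -3.00 to -2.98 of the others. Eif2ak1, the haem-regulated eIF2 kinase, had a level of -2.02 on replicate 4, above the -3.01 to -2.87 of the others. Asns and Eprs1 are measured by 2 spots and Eif2ak1 by 1 spot per array. Eprs1 was not called on replicate 4, and its arrays lay within 1.49-fold.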

How the results depend on the processing

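Counts of detected genes ranged from 10 to 15 on the synthetase side and from 7 to 8 in the stress set over all detection rules, including each replicate left out. Spread depended on the scaling. The median SD of the synthetase side was 0.867 with the percentile over all gene probes, 0.550 with quantile normalization, 0.443 with no scaling, 0.170 with normexp, 0.421 with no filter on dim probes and 0.163 to 0.236 with a replicate left out. Genes over 2-fold there numbered 8, 7, 6, 0 and 10 in the first 5 of these settings and 0 to 2 with a replicate left out, with 0 without replicate 4. For the stress genes the median SD was 0.895 with the percentile over all gene probes, 0.493 with no scaling, 0.182 with normexp and 0.223 to 0.373 with a replicate left out, and genes over 2-fold numbered 6, 5, 0 and 0 to 1, or 3 with no filter on dim probes. Those scalings shift all detected genes between arrays: on replicate 4 their median deviation was -1.23 with the percentile over all gene probes, -0.34 with quantile normalization and -0.35 with no scaling. Relative to all detected genes, the median deviation of the set was within 0.05 of 0 on each replicate, at -0.00037, 0.0033, 0.029 and -0.042. It became 0.061, -0.095, -0.064 and 0.080 with quantile normalization, 0.51, 0.16, -0.019 and -0.69 with no filter on dim probes, and -0.011 on replicate 4 with normexp. With a replicate left out it ran from -0.014 to 0.041 on replicate 1 and from -0.047 to 0.014 on replicate 2. The causes were not tested. Keeping all spots moved 1 of 17 SDs of single genes by over 1.5 times, that of Phgdh, from 0.013 to 0.036. Averaging over detected probes could move none, because each of the 17 genes has a single detected probe. Signals near background limit what can be said of the 7 genes called on some arrays and the 7 called on none. No paired analysis was possible because there is 1 group.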
